A study of Caenorhabditis elegans with 8 samples.

Results

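The genes described here are 8 nutrient sensors of the worm Caenorhabditis elegans. They are the TOR kinase gene let-363, its partner genes daf-15 and rict-1, the downstream kinase gene rsks-1, the upstream GTPase gene raga-1, the AMPK catalytic subunit genes aak-1 and aak-2, and the sirtuin gene sir-2.1. They were chosen by name, as the core members of 3 pathways, out of 18287 genes that both deposited count sheets hold. All 8 passed the filter on low counts, which left 15843 genes for the tests.

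RNA was sequenced from whole adult worms of strain MT15501, which carries a mutation of the microRNA gene mir-83, and of the wild-type strain N2. The 4 groups, with 2 libraries each, were mir-83 day 12, N2 day 12, mir-83 day 4 and N2 day 4, where the day is the day of adulthood. All groups were kept on plates containing FuDR, which prevents offspring from arising, and bacterial food was rinsed off the worms. The study asked how loss of the microRNA affects gene expression at different ages. The mutant is 1 strain, mir-83 RNA was not analysed here, and the labels do not say whether replicates came from separate cultures. The p-values therefore measure only how far these samples spread, which may be a technical matter.

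TOR is a protein kinase that drives growth and protein synthesis when amino acids and other nutrients are plentiful. With Raptor, encoded by daf-15, it forms TOR complex 1, and with Rictor, encoded by rict-1, it forms TOR complex 2. AMPK is a kinase that is switched on when cellular energy is low, and in worms its subunit AAK-2 is needed for several forms of long life. SIR-2.1 is a protein deacetylase that consumes NAD, the worm relative of yeast Sir2 and mammalian SIRT1. These proteins are also regulated after transcription, and transcript levels do not measure their activity.

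Library depth ranged from 20.3 to 41.2 M reads. Levels are in CPM, read counts relative to library size, after scaling with TMM factors, which correct for differences in the make-up of the libraries. The mir-83 day 4 libraries stood apart, with factors of 0.644 and 0.596, while the remaining 6 had 1.08 to 1.23, so every level of mir-83 day 4 depends on this scaling. With plain library sizes the median over all genes of the log2 fold change between mir-83 and N2 at day 4 was -0.99 in place of -0.14. The mir-83 day 12 libraries were unlike each other for several members, as given below. Markers of all 8 tissues or cell types examined were detected in every library. In whole animals, fewer cells of a type and less RNA per cell cannot be told apart.

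The members lie on 5 chromosomes (coordinates of WBcel235, the assembly that ce11 names). The gene let-363 is on chromosome I from 5245743 to 5263424, and its exons span 8560 bases in all. The gene daf-15 is on chromosome IV from 9386208 to 9394979, where sir-2.1 also lies, from 10363318 to 10366229. On chromosome II lie rict-1, from 13098239 to 13116810, and raga-1, from 11301359 to 11302776. On chromosome III lie rsks-1, from 11245120 to 11252281, and aak-1, from 8756990 to 8761090. The gene aak-2 is on chromosome X from 16796087 to 16803398. All 8 are protein-coding, and 5 of them share annotated exon bases with a neighbour. The overlap is 107 bases of daf-15 with col-121, 100 of aak-1 with sma-2, 78 of aak-2 with mec-4, 37 of rict-1 with col-86 and 22 of sir-2.1 with ugt-59. Over the 8 libraries these neighbours had between 51 and 373 reads (sma-2), 2 and 284 (col-121), 8 and 63 (col-86), 9 and 56 (mec-4) and 5 and 54 (ugt-59). The highest value of sma-2, in mir-83 day 12 replicate 2, stood beside 2479 reads of aak-1 in that library. The mec-4 gene had 11 and 13 reads in mir-83 day 4 and 10 and 30 in N2 day 4, where aak-2 had 1235 and 1423 reads in mir-83 and 765 and 739 in N2.

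**Figure D1:**
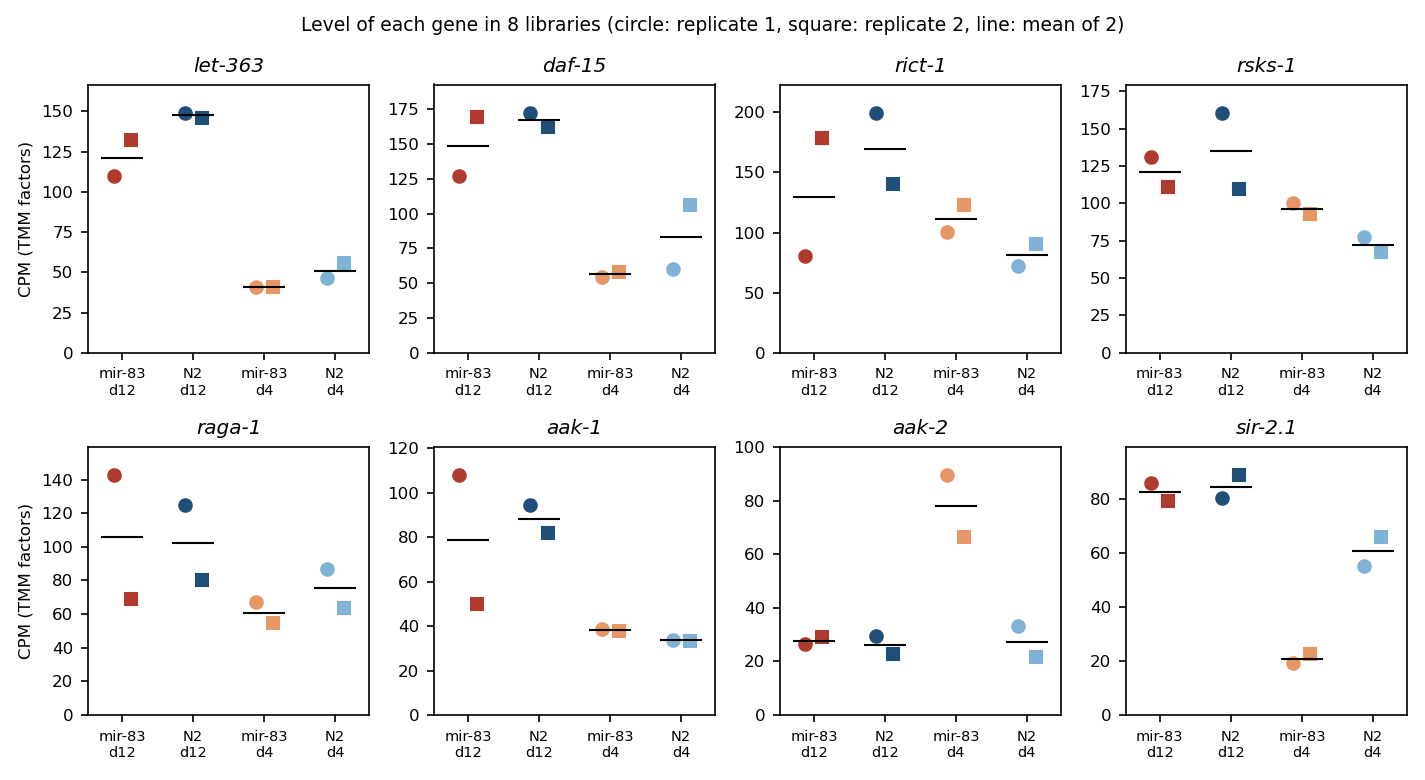
Level of each of the 8 genes in CPM with TMM factors (vertical axis, linear from 0) in mir-83 day 12, N2 day 12, mir-83 day 4 and N2 day 4. Circles are replicate 1, squares replicate 2 and lines the mean of 2. In mir-83 day 4 the aak-2 libraries, at 66.6 and 89.5, stand above all others, and the sir-2.1 libraries, at 19.3 and 22.6, below all others.

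Members' levels can be set against each other per kilobase of exon. On that scale raga-1 was highest in all 4 groups, at 83.4 ± 41.1 CPM per kilobase in mir-83 worms of day 12 and 81.0 ± 25.0 in N2 worms of that age (SD, n = 2). At day 4 it had 48.1 ± 6.97 in mir-83 and 59.4 ± 13.2 in N2. In each group its lower library was above the higher library of the next gene. At the other end, let-363 was lowest at day 4, with 4.75 ± 0.00424 CPM per kilobase in mir-83 and 5.95 ± 0.783 in N2. At day 12 aak-2 was lowest, with 11.4 ± 0.758 in mir-83 and 10.8 ± 1.89 in N2. Between the groups of day 4, ranks 2, 6 and 7 held different genes. In mir-83 day 4 aak-2 was second, at 32.1 ± 6.64, with a range that overlapped that of rsks-1 below it, and sir-2.1 was sixth, at 10.3 CPM per kilobase, overlapping daf-15. In N2 day 4 sir-2.1 was second, at 29.9 ± 3.75, apart from its neighbours, and aak-2 was seventh, at 11.3 ± 3.41, overlapping daf-15 above it. In N2 day 4 the neighbours from rict-1 through aak-1, daf-15 and aak-2 each overlapped the next. In both day 12 groups the genes of ranks 2 to 5 each overlapped the next one down, and that of rank 6, daf-15, did not.

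Young adults of the 2 strains were compared first, to see what accompanies absence of the microRNA at day 4. One AMPK catalytic gene, aak-2, was higher in the mutant, the sirtuin gene sir-2.1 was lower, and the other 6 members did not pass the test. These 2 calls of 8 members stand beside 7.05% of all genes tested (adjusted p under 0.05 in edgeR). Under plain library sizes aak-2 did not pass, and sir-2.1, let-363, daf-15 and raga-1 were lower, against 25.4% of all genes in either direction and 24.1% lower. DESeq2 called the same 2 members, where it called 16.6% of all genes, 9.51% higher and 7.11% lower.

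The AMPK gene aak-2 stood at 89.5 and 66.6 CPM in mir-83 day 4 (replicates 1 and 2), against 33.3 and 21.5 CPM in N2 day 4. Both mutant libraries lay above both wild-type ones. Of the 8 members 4 were separated in this direction and 3 in the other, and the share of all genes was not counted. The log2 fold change was 1.52 ± 0.31 (SE), a 2.87-fold higher level (edgeR adjusted p = 0.0318). It was 1.43 in replicate 1 and 1.63 in replicate 2, on log2 CPM. On plain library sizes the levels were 57.6 and 39.7 CPM in mir-83 and 38.6 and 23.2 in N2, and the groups were still apart, with a log2 fold change of 0.67 (edgeR adjusted p = 0.149). Relative to the median of all genes the change was 1.66 under either scaling. Without the replicate block the adjusted p was 0.0627 in edgeR, where 2.03% of all genes passed and 1.29% were higher. The call was lost without either mir-83 day 4 library (adjusted p = 0.273 and 0.248 in edgeR), either N2 day 4 library (adjusted p = 0.124 and 0.223) or N2 day 12 replicate 1 (adjusted p = 0.0521). With each of the 8 libraries left out in turn the log2 fold change lay between 1.33 and 1.74. Leaving out a library of the groups compared leaves 1 in its group, which is then assumed to vary like the others.

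The sirtuin gene sir-2.1 stood at 19.3 and 22.6 CPM in mir-83 day 4, against 55.3 and 66.1 CPM in N2 day 4. These rest on 267 and 482 reads in the mutant and 1273 and 2270 in N2. The groups did not overlap, a trait that most members had at day 4 and that was not counted over all genes. The log2 fold change was -1.53 ± 0.25 (edgeR adjusted p = 0.0223), with -1.51 in replicate 1 and -1.55 in replicate 2. On plain library sizes it was -2.39 (edgeR adjusted p = 0.00577). Relative to the median of all genes it was -1.39 under both scalings. Without either N2 day 4 library the adjusted p was 0.0862 and 0.104, and without either mir-83 day 4 library 0.197 and 0.211, so the call was lost without any 1 of these 4 libraries. With each of the 8 libraries left out in turn its log2 fold change lay between -1.62 and -1.44.

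Of the TOR genes, the kinase gene let-363 stood at 40.7 CPM in both mir-83 day 4 libraries, against 46.2 and 55.7 CPM in N2 day 4. The Raptor gene daf-15 stood at 54.5 and 58.3 CPM in mir-83, against 60.5 and 106.4 CPM in N2, where the replicates were far apart. The Rictor gene rict-1 stood at 100.5 and 122.7 CPM in mir-83, against 71.9 and 90.4 CPM in N2. For each of these genes the mutant libraries lay on one side of the wild-type ones, let-363 and daf-15 below and rict-1 above. How many of all genes were separated in this way was not counted. The log2 fold changes of let-363, daf-15 and rict-1 were -0.32 ± 0.23, -0.53 ± 0.28 and 0.46 ± 0.36 (edgeR adjusted p = 0.416, 0.265 and 0.456), and none passed. Under plain library sizes rict-1 turned to -0.39, and let-363 and daf-15 passed at -1.17 and -1.37 (edgeR adjusted p = 0.00843 and 0.00948).

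The S6 kinase gene rsks-1, whose product is phosphorylated by TOR complex 1, stood at 100.1 and 92.6 CPM in mir-83 day 4, against 77.6 and 67.3 CPM in N2 day 4. The gene raga-1 encodes a Rag GTPase that signals amino acid supply to TOR complex 1. It stood at 67.1 and 54.6 CPM in mir-83, against 87.0 and 63.5 CPM in N2, with overlapping ranges. The second AMPK catalytic gene, aak-1, stood at 38.5 and 37.8 CPM in mir-83, against 34.0 and 33.2 CPM in N2. These differences did not pass, at log2 fold changes of 0.42 ± 0.23, -0.29 ± 0.26 and 0.19 ± 0.32 (edgeR adjusted p = 0.292, 0.516 and 0.747). Scaled to plain library sizes, rsks-1 and aak-1 turned to -0.44 and -0.67 without passing, and raga-1 passed at -1.14 (edgeR adjusted p = 0.0123).

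**Figure D2:**
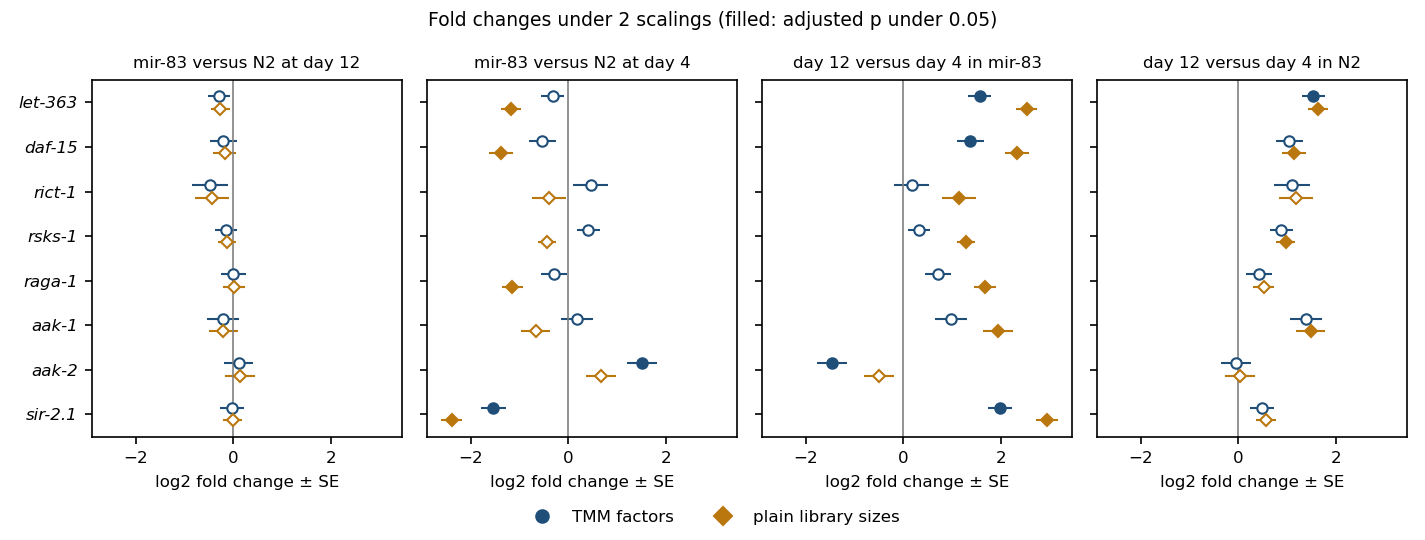
Log2 fold change with its SE (horizontal axis) of the 8 genes in 4 comparisons, with TMM factors (circles) and with plain library sizes (diamonds), where filled symbols passed an adjusted p of 0.05. At day 4 all symbols of plain library sizes lie lower by about the same amount, and aak-2 is the rightmost and sir-2.1 the leftmost gene under both scalings.

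The ratio of reads of 2 genes within 1 library does not depend on the scaling between libraries. The ratio of aak-2 to sir-2.1 reads was 4.63 and 2.95 in mir-83 day 4, against 0.601 and 0.326 in N2 day 4. The mutant at day 4 thus had more aak-2 than sir-2.1 reads, while all 6 other libraries had fewer. This pair joins the member called higher with the member called lower at day 4. The ratio therefore restates those calls and is no further support for them. How many pairs of genes differ this much was not counted. On the log2 scale the mean ratio was 1.89 ± 0.46 in mir-83 day 4 and -1.18 ± 0.63 in N2 day 4 (SD, n = 2). At day 12 the ratio was 0.307 and 0.367 in mir-83, against 0.365 and 0.258 in N2. There the strains overlapped.

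Other ratios, chosen after the values were seen, compare members within the AMPK and TOR pathways. In each the first gene had the higher log2 fold change at day 4. A higher ratio in mir-83 than in N2 at that age thus follows from the choice. The ratio of aak-2 to aak-1 reads was 2.33 and 1.76 in mir-83 day 4, against 0.980 and 0.649 in N2 day 4. At day 12 it was 0.246 and 0.581 in mir-83 and 0.312 and 0.280 in N2, below the day 4 values of the same strain. The ratio of rict-1 to daf-15, the partners that set TOR complex 2 and TOR complex 1 apart, was 1.84 and 2.1 in mir-83 day 4, against 1.19 and 0.850 in N2 day 4. At day 12 it was 0.632 and 1.06 in mir-83 and 1.16 and 0.865 in N2, so both libraries of mir-83 day 4 lay above the remaining 6. The ratio of rsks-1 to let-363 was likewise highest there, at 2.46 and 2.28 in mir-83 day 4, against 1.68 and 1.21 in N2 of the same age. At day 12 it was 1.19 and 0.839 in mir-83 and 1.08 and 0.753 in N2.

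**Figure D3:**
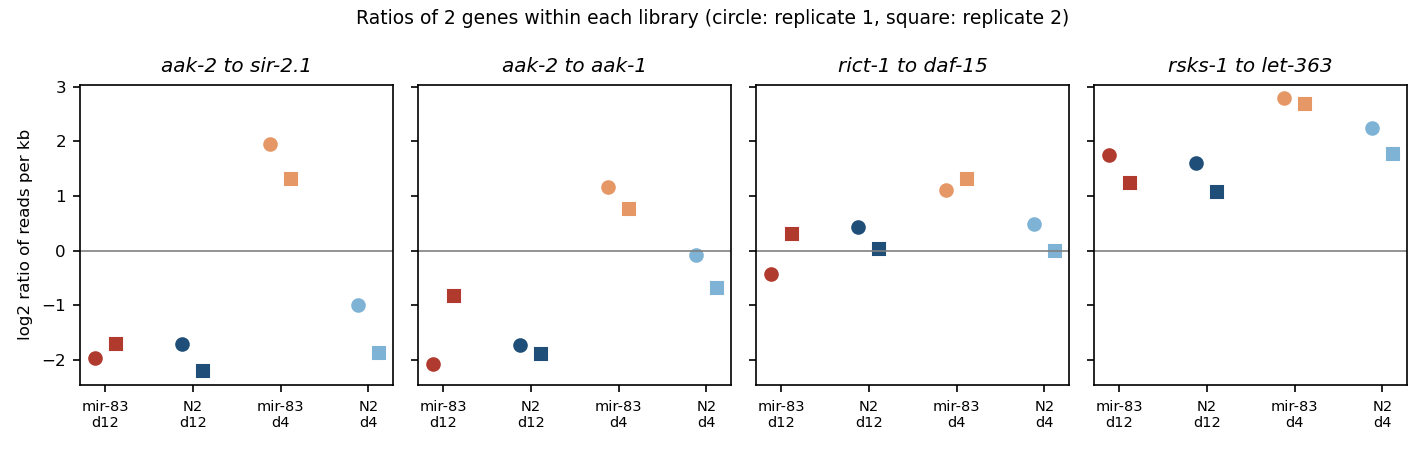
Log2 ratio of reads per kilobase of 2 genes within each library (vertical axis) in mir-83 day 12, N2 day 12, mir-83 day 4 and N2 day 4, with circles for replicate 1 and squares for replicate 2. In all 4 panels both mir-83 day 4 libraries lie above the other 6, and for aak-2 to sir-2.1 they are at 1.95 and 1.30 while the other 6 are below 0. Each pair names first the gene with the higher log2 fold change between the strains at day 4. A higher day 4 ratio in mir-83 than in N2 thus follows from the choice of pairs.

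Summed levels of tissue markers also differed between these groups. That of 6 muscle markers, unc-54 among them, was 3760 to 4070 CPM in mir-83 day 4 and 558 to 922 CPM in N2 day 4, and 4 of 6 passed as higher. The 6 intestinal markers summed to 2030 to 2040 CPM in mir-83 and 355 to 727 CPM in N2, and 3 of 6 passed as higher. The rest, elt-2, ges-1 and elt-7, had log2 fold changes of 0.09 ± 0.50, 0.67 ± 0.62 and 0.32 ± 0.59. On plain library sizes these turned to -0.75, -0.21 and -0.55 without passing. The 6 oocyte markers summed to 13100 to 14800 CPM in mir-83 and 4390 to 4540 CPM in N2, with 2 of 6 higher. The 6 hypodermal markers summed to 1370 to 1510 CPM in mir-83 and 147 to 361 CPM in N2, but 0 of 6 passed, and dpy-7 and rol-6 had log2 fold changes of -1.33 ± 0.97 and -2.403 ± 1.71 beside 3.15 ± 0.89 for col-19. The 6 germline markers summed to 2080 to 2300 CPM in mir-83 and 1040 to 1120 CPM in N2, with glh-1 and gld-1 higher and him-3 and htp-3 at -0.18 ± 0.31 and -0.51 ± 0.38. The 6 neuronal markers summed to 504 to 919 CPM in mir-83 and 320 to 489 CPM in N2, with egl-3 alone of the 6 higher and unc-64 at -0.59 ± 0.33. The germline and neuronal sums of the strains overlapped on plain library sizes, at 1240 to 1480 CPM in mir-83 and 1120 to 1300 CPM in N2 for the germline and 300 to 592 CPM in mir-83 and 345 to 568 CPM in N2 for neurons. Under that scaling 4 muscle, 1 intestinal, 1 oocyte and 1 neuronal marker were higher, and him-3, htp-3, unc-64 and 4 embryonic markers were lower. The 6 embryonic markers summed to 0.725 to 1.55 CPM in mir-83 and 22.4 to 22.7 CPM in N2, with 2 and 1 of them at 0 in the mutant libraries. With TMM factors 3 of the 5 embryonic markers tested passed as lower. The 6 sperm markers were at 10.3 to 10.4 CPM in mir-83 and 9.99 to 27.2 in N2. Their part in the levels of aak-2 and sir-2.1 was not tested.

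At day 12, where the question is whether the strains differ in old adults, 0 of 8 members passed (0% of all genes in edgeR). For no member was the unadjusted p under 0.05 in edgeR, beside 306 of all 15843 genes. The count in DESeq2 was also 0, against 0.0252% of all genes, 0.0126% in each direction. The AMPK gene aak-2 stood at 26.5 and 29.1 CPM in mir-83 and 29.5 and 22.96 CPM in N2, and sir-2.1 at 86.2 and 79.4 CPM in mir-83 and 80.7 and 88.9 CPM in N2. In both genes the ranges overlapped. Their log2 fold changes were 0.11 ± 0.30 and -0.03 ± 0.24, and that of sir-2.1 was 0.07 with RLE size factors. The TOR kinase gene let-363 was the member whose groups did not overlap, at 109.7 and 132.2 CPM in mir-83 and 148.8 and 146.0 CPM in N2 (log2 fold change -0.29 ± 0.23). How many of all genes were separated in this way was not counted, so this sets let-363 apart from the other members only.

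For 3 members the mir-83 day 12 replicates were far apart. The Rictor gene rict-1 stood at 80.4 and 179.0 CPM in mir-83, against 199.3 and 140.5 CPM in N2. The AMPK gene aak-1 stood at 107.7 and 50.1 CPM in mir-83 and 94.4 and 81.9 CPM in N2. The GTPase gene raga-1 stood at 142.4 and 68.9 CPM in mir-83 and 124.9 and 80.2 CPM in N2. In rict-1 replicate 2 was the higher one, and in aak-1 and raga-1 replicate 1. The log2 fold change of rict-1 was -1.07 without mir-83 day 12 replicate 2 and 0.05 without replicate 1, in place of -0.48 ± 0.37, and that of aak-1 was 0.25 and -0.77 in place of -0.21 ± 0.32. That of raga-1 was 0.27 and -0.31, in place of 0.00 ± 0.26. The remaining values were -0.20 ± 0.28 for daf-15, at 127.2 and 169.3 CPM in mir-83 and 172.1 and 162.3 CPM in N2, and -0.15 ± 0.23 for rsks-1, at 131.1 and 111.0 CPM in mir-83 and 160.4 and 110.0 CPM in N2.

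Between day 12 and day 4 of the mutant 4 members passed, against 27.9% of all genes. The genes let-363, daf-15 and sir-2.1 rose with age and aak-2 fell. The sirtuin gene sir-2.1 rose by a log2 fold change of 1.99 ± 0.25 (edgeR adjusted p = 0.00325), with 86.2 and 79.4 CPM at day 12 against 19.3 and 22.6 CPM at day 4. It passed with each of the 8 libraries left out in turn, between 1.83 and 2.15. The TOR kinase gene let-363 rose by 1.57 ± 0.24 (adjusted p = 0.00507) and the Raptor gene daf-15 by 1.38 ± 0.28 (adjusted p = 0.0119). The AMPK gene aak-2 changed by -1.46 ± 0.31 (adjusted p = 0.0135), with 26.5 and 29.1 CPM at day 12 against 89.5 and 66.6 CPM at day 4. Without mir-83 day 4 replicate 1 or 2 the calls of let-363 (edgeR adjusted p = 0.0634 and 0.0668), daf-15 (adjusted p = 0.0983 and 0.111) and aak-2 (adjusted p = 0.146 and 0.0937) were lost. Without either mir-83 day 12 library all 4 held, and without replicate 2 of them aak-1 and raga-1 passed as well. DESeq2 called 5 members, the same 4 and aak-1, where it called 40.1% of all genes, 22% higher and 18.1% lower.

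The other 4 members of the mutant did not pass with age. The log2 fold change was 0.99 ± 0.33 for aak-1 (edgeR adjusted p = 0.0558), 0.72 ± 0.26 for raga-1, 0.32 ± 0.23 for rsks-1 and 0.17 ± 0.36 for rict-1. That of rict-1 was -0.45 without mir-83 day 12 replicate 2 and 0.67 without replicate 1. Under plain library sizes 7 members rose, all but aak-2, which stood at -0.49 and did not pass. Of all genes 43.5% passed there, 37.3% higher and 6.16% lower, and their median was 1.01, against 0.05 with TMM factors. Relative to the median, sir-2.1 was at 1.94, let-363 at 1.52 and daf-15 at 1.33 under either scaling, and aak-2 was at -1.51 with TMM factors. Tissue markers differed here as well. The 6 muscle markers summed to 105 to 257 CPM in mir-83 day 12 and 3760 to 4070 CPM in mir-83 day 4, and the 6 intestinal markers to 78.8 to 106 and 2030 to 2040. In the same order, oocyte sums were 4600 to 5990 and 13100 to 14800 CPM, and hypodermal sums 69.5 to 161 and 1370 to 1510. Germline sums were 1420 to 1960 and 2080 to 2300, and neuronal sums 215 to 377 and 504 to 919. Of the 6 germline markers 1 rose and 2 fell, while on plain library sizes 4 rose and 0 fell. Germline sums were higher at day 12 on plain library sizes, at 2350 and 1730 CPM against 1480 and 1240 at day 4. Neuronal sums overlapped there, at 454 and 261 CPM at day 12 and 592 and 300 at day 4. Embryonic sums were higher at day 12, at 7.33 to 34.1 and 0.725 to 1.55 CPM, and 4 of 5 markers tested passed. Sperm sums were 149 and 12.3 CPM in the day 12 replicates and 10.4 and 10.3 at day 4. The part of the markers in these changes was not tested.

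Between day 12 and day 4 of N2 1 member passed, against 4.51% of all genes, and again it was let-363. It stood at 148.8 and 146.0 CPM at day 12, against 46.2 and 55.7 CPM at day 4, a log2 fold change of 1.54 ± 0.24 (edgeR adjusted p = 0.0254). Both day 12 libraries were thus well above both day 4 ones. Of the 8 members 6 were separated in this direction, and the share of all genes was not counted. The call was lost without any 1 of the 4 N2 libraries (edgeR adjusted p between 0.0588 and 0.205) or of the mir-83 day 4 libraries (adjusted p = 0.0585 and 0.0587), while the log2 fold change lay between 1.43 and 1.65 with each of the 8 libraries left out in turn. Other log2 fold changes were 1.38 ± 0.33 for aak-1, 1.11 ± 0.37 for rict-1, 1.05 ± 0.28 for daf-15 and 0.88 ± 0.23 for rsks-1 (edgeR adjusted p = 0.0552, 0.111, 0.0693 and 0.0687). DESeq2 called all 4 of these genes, with let-363, where it called 20.6% of all genes, 11.1% higher and 9.42% lower. Plain library sizes let aak-1, daf-15 and rsks-1 pass beside let-363, against 5.98% of all genes in either direction and 4.15% higher.

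The 3 other members moved less in N2. The log2 fold change was 0.48 ± 0.24 for sir-2.1, with 80.7 and 88.9 CPM at day 12 and 55.3 and 66.1 CPM at day 4, and 0.43 ± 0.26 for raga-1. For aak-2 it was -0.05 ± 0.30, with 29.5 and 22.96 CPM at day 12 and 33.3 and 21.5 CPM at day 4, and 0.01 with RLE size factors and 0.04 with plain library sizes. Summed marker levels moved with age in N2 too. The 6 muscle markers summed to 177 to 234 CPM at day 12 and 558 to 922 CPM at day 4, and lev-11 and tnt-2 fell. The 6 intestinal markers summed to 123 to 156 CPM at day 12 and 355 to 727 CPM at day 4, and ifb-2 and cpr-6 fell. The 6 germline markers summed to 1860 to 2740 CPM at day 12 and 1040 to 1120 CPM at day 4, and glh-1 rose. In the same order, sperm sums were 72.3 to 113 and 9.99 to 27.2 CPM, hypodermal sums 74.1 to 100 and 147 to 361. Embryonic sums were 11.3 to 12.4 and 22.4 to 22.7 CPM. Oocyte sums, 3360 to 6770 and 4390 to 4540 CPM, and neuronal sums, 190 to 347 and 320 to 489, overlapped. No sperm, hypodermal, embryonic, oocyte or neuronal marker passed. The part of the markers in the levels of let-363 and the other members was not tested. The ageing comparisons share their day 4 libraries with the comparison of the strains at day 4.

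Whether the strain effect itself depends on age was tested as the effect at day 12 minus that at day 4. None of the 8 members passed in edgeR, where 0% of all genes did. DESeq2 called 1 member, against 8.36% of all genes, 3.75% higher and 4.61% lower. For 2 members the unadjusted p was under 0.05 in edgeR, beside 2911 of all 15843 genes. The 2 were sir-2.1, at 1.505 ± 0.35 (edgeR adjusted p = 0.085), and aak-2, at -1.41 ± 0.43 (adjusted p = 0.142). In DESeq2 sir-2.1 passed (adjusted p = 0.0168), as it did in edgeR with plain library sizes, at 2.37 (adjusted p = 0.023, with 10.3% of all genes higher and 0.682% lower), and without mir-83 day 12 replicate 2, at 1.66 (adjusted p = 0.0466). The effects were 1.61 and 1.38 in the replicates for sir-2.1, and -1.58 and -1.29 for aak-2. The other 6 members lay between -0.94 ± 0.52 for rict-1 and 0.33 ± 0.39 for daf-15.

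The 44 other genes of the same pathways were listed by their known roles. At day 4, 3 of 44 were higher in mir-83 than in N2 and 0 lower, beside 4.42% higher and 2.63% lower among all genes, and their median log2 fold change was 0.00, with -0.14 for all genes. The 3 were aakg-1, a regulatory gamma subunit of AMPK, nprt-1, which encodes a nicotinate phosphoribosyltransferase of NAD salvage, and rps-6, the ribosomal protein that S6 kinase phosphorylates in mammals. The aakg-1 gene stood at 110.0 and 57.2 CPM in mir-83, against 42.1 and 13.9 CPM in N2 (log2 fold change 1.68 ± 0.34, edgeR adjusted p = 0.032). The nprt-1 gene stood at 134 and 168 CPM in mir-83, against 57.5 and 43.7 CPM in N2 (1.61 ± 0.28, adjusted p = 0.0247). The rps-6 gene was at 1.62 ± 0.37 (adjusted p = 0.0424). In each of the 3 the mutant libraries were above the wild-type ones, a trait not counted over all genes. Under plain library sizes none of the 3 passed, and 15 of 44 were lower and 0 higher, beside 24.1% lower and 1.33% higher among all genes, with a median of -0.86 against -0.99 for all genes. DESeq2 called 9 of the 44, where it called 16.6% of all genes.

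By role, the day 4 medians were 0.57 for 13 AMPK partners, 0.60 for 8 genes downstream of TOR, 0.01 for 12 sirtuin partners and -0.23 for 11 TOR partners. These medians follow the scaling: on plain library sizes they were -0.28, -0.25, -0.86 and -1.08 in the same order. Of the 11 TOR partners 0 passed in edgeR, with 2 at an unadjusted p under 0.05, beside 4179 of all 15843 genes. DESeq2 called 1 of them, against 16.6% of all genes. On plain library sizes 8 of the 11 were lower, beside 24.1% of all genes. The beta subunit genes of AMPK, aakb-1 and aakb-2, had 1.02 ± 0.45 and 0.94 ± 0.27 and did not pass. On plain library sizes they had 0.16 and 0.09. The other gamma subunit genes did not pass either. Their values were -0.0044 ± 0.35 for aakg-2, 0.03 ± 0.79 for aakg-3, -0.38 ± 0.63 for aakg-4 and 0.57 ± 0.25 for aakg-5. The sirtuin relatives sir-2.2, sir-2.3 and sir-2.4 had -0.04 ± 0.50, -0.27 ± 0.74 and -0.25 ± 0.38 and did not pass either. At day 12, 0 of the 44 passed in edgeR and 0 in DESeq2. An unadjusted p under 0.05 was found for 2 of the 44 in edgeR, beside 306 of all 15843 genes.

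With age in the mutant, 8 of the 44 rose and 8 fell, beside 12.8% and 15.2% of all genes. Among 11 TOR partners 4 rose and 0 fell. They were sinh-1, a TOR complex 2 subunit (1.94 ± 0.37), lmtr-5, a Ragulator subunit (1.37 ± 0.30), nprl-3, a relative of a yeast and mammalian inhibitor of TOR complex 1 (1.28 ± 0.35), and mlst-8, a subunit of both complexes (1.26 ± 0.35). Among 8 genes downstream of TOR 4 fell and 1 rose. Those that fell were the transcription factor gene pha-4 (-2.65 ± 0.66), rps-6 (-1.96 ± 0.38), the autophagy kinase gene unc-51 (-1.84 ± 0.49) and the cap-binding factor gene ife-2 (-1.10 ± 0.24). In mir-83 day 12 the replicates of pha-4 were far apart, at 0.809 and 2.42 CPM from only 30 and 120 reads. Those of unc-51 were also far apart there, at 11.8 and 35.6 CPM. The gene that rose was efk-1, which encodes the kinase of an elongation factor (1.22 ± 0.26). On plain library sizes 23 of the 44 rose and 2 fell, beside 37.3% and 6.16% of all genes. Of the 4 that fell downstream of TOR, rps-6 alone then passed as lower.

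Of 13 AMPK partners 2 rose and 2 fell with age in the mutant. The upstream kinase gene par-4, the worm LKB1, rose by 1.00 ± 0.27, as did mop-25.2, a gene for a scaffold of that kinase in mammals, by 1.20 ± 0.31. The beta subunit gene aakb-1 changed by -1.60 ± 0.46 and the gamma subunit gene aakg-1 was 2.18-fold lower, the direction of aak-2, and with plain library sizes neither passed. Of 12 sirtuin partners, hcf-1 rose by 0.94 ± 0.26. The genes ftt-2 and par-5, whose adaptor proteins bind SIR-2.1, changed by -1.88 ± 0.30 and -0.95 ± 0.27, and par-5 was at 0.01 with plain library sizes. In N2, 2 of 44 rose with age and 0 fell, beside 2.11% and 2.4% of all genes. They were ifg-1, a translation initiation factor gene (1.34 ± 0.25, edgeR adjusted p = 0.0334), and nprt-1 (1.20 ± 0.27, adjusted p = 0.0495). DESeq2 called 8 of the 44 there, against 20.6% of all genes, and 4 rose and 0 fell on plain library sizes, against 4.15% and 1.83% of all genes.

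**Figure D4:**
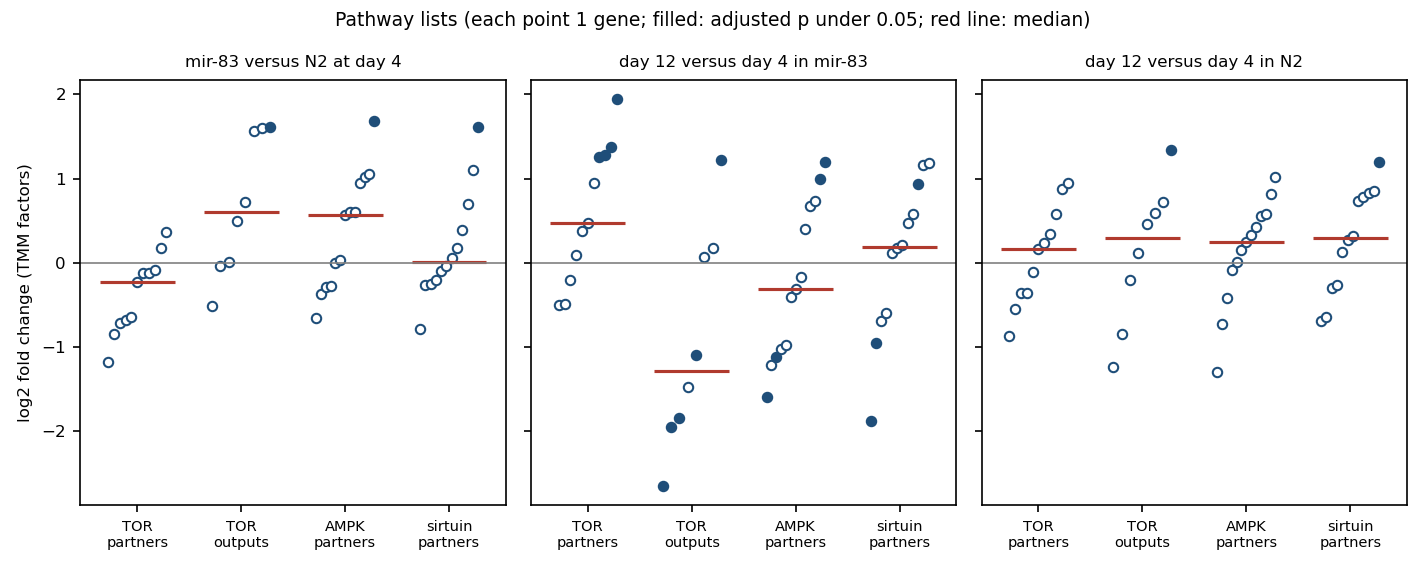
Log2 fold change with TMM factors (vertical axis) of the 44 listed pathway genes, by role, for mir-83 against N2 at day 4, day 12 against day 4 in mir-83 and day 12 against day 4 in N2. Each point is 1 gene, filled points passed an adjusted p of 0.05, and red lines are medians. In the mutant the TOR partners have a median of 0.48 with age and the genes downstream of TOR one of -1.29.

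Members were also compared by the shape of their levels over the 8 libraries, as the root mean square difference of log2 CPM after each gene's mean within each replicate number was removed. Among the members, let-363 and daf-15, the kinase and its complex 1 partner, were most alike, at 0.214. They were followed by rict-1 and rsks-1 at 0.277 and rsks-1 and raga-1 at 0.291. The least alike pair was aak-2 and sir-2.1, at 1.49, and the AMPK genes aak-1 and aak-2 differed by 1.14. Over all candidate genes with a symbol, the nearest to aak-2 were exc-1 at 0.0637 and tram-1 at 0.130, and to sir-2.1 hasp-1 at 0.0971 and hrde-4 at 0.110. For let-363 they were the splicing factor gene prp-8 at 0.116 and drsh-1, which encodes the microRNA-processing enzyme Drosha, at 0.124. For daf-15 they were egrh-3 and hgap-2, for rict-1 pis-1 and afd-1, for rsks-1 lin-23 and daf-19, and for aak-1 zim-3 and mes-2. For raga-1 they were apn-1, at 0.0309, and strd-1, another gene of the listed AMPK partners, at 0.0493.

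The sheets list several transcripts for 6 of the members, and each transcript's share of its gene's reads is given here as its range over the 4 libraries of a replicate number. Of 3 aak-2 transcripts, T01C8.1a took between 33.3% and 35.6% of the gene's reads in the 4 libraries of replicate 1, T01C8.1b 31.5% to 34.2% and T01C8.1c 30.8% to 34.1%. In aak-1, PAR2.3a took 60.3% to 61.1% and PAR2.3b 38.9% to 39.7%. In rict-1, F29C12.3c took 24.5% to 28.3%. In replicate 2, whose sheet has its own annotation, the ranges of the 3 aak-2 transcripts were 27.8% to 33.4%, 30.9% to 32.1% and 35.3% to 40.1%, and 1 of 2 sir-2.1 transcripts took 50.8% to 55.4%. No source used here says how reads shared by transcripts were divided, so these shares do not measure isoforms. Sums per gene, used throughout, do not depend on that division if each read was counted once, which the sources used here do not state.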

How the data were processed

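The values are raw read counts of transcripts, deposited by the authors in 1 sheet per replicate number, with WormBase sequence names in the first and RefSeq accessions in the second. Per the submitters' processing notes, Bowtie2, edgeR and build ce11 were used; no version or role is stated. Trimming, counting and the use of strand are not given in the sources used here. Transcripts were matched to genes of WBcel235 (215 and 278 matched none, 0.0908% and 0.247% of reads) and summed. All 8 members and 44 pathway genes matched, and the rows of members in the second sheet were those that carry their gene names.

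Tests used edgeR 4.0.16 (filterByExpr, TMM, glmQLFit and glmQLFTest) in R 4.3.3 fitted to the 8 libraries together, with a mean for each group and the replicate number as a block, since each number has its own sheet and annotation. As a check of this pairing, deviations from the group means were correlated across genes between libraries of 1 number. The values lay between 0.119 and 0.415 over 6 pairs of groups, each over 0.1, which was the second ground for the block. Libraries of 1 number also share 1 annotation, so these values are not independent of the first ground. They cannot show that the samples themselves were paired. The block leaves 3 residual degrees of freedom. P-values are two-sided and adjusted by Benjamini-Hochberg over 15843 genes within each of 5 comparisons. Fold changes are the first-named over the second-named group. The test was also run on simulated counts. These held no replicate effect and changes in mir-83 day 4 alone, so that run cannot support the calls made here. Alternatives were RLE factors, plain library sizes, no filter, no block, only the 4 libraries compared, DESeq2 1.42.0, a stricter adjusted p of 0.01 and each library left out. Exon length is the union of annotated exons, and Python 3.11.15 was also used. Genes named are the 8 members, pathway genes past the threshold, and the 2 genes nearest each member in pattern. Relatives and subunits that did not pass were named after their values were seen. The members and lists were chosen with earlier results of these data known.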

Additional observations from a re-analysis of the deposited data

How the results depend on the processing

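At day 4 the 2 members past the threshold became 4 with plain library sizes, 1 without the replicate block and 0 at an adjusted p under 0.01. The share of all genes went from 7.05% to 25.4% with plain library sizes and to 2.03% without the block. In the mutant with age the 4 became 7 with plain library sizes, 5 with RLE factors, 5 with DESeq2, 2 at 0.01 and 1 to 6 with 1 library left out. In N2 with age the 1 became 4 with plain library sizes, 5 with DESeq2, 2 without the filter, 2 with only the 4 libraries compared and 0 at 0.01. There 4.51% of all genes became 5.98% with plain library sizes and 20.6% with DESeq2. For the age difference, 0 became 1 with plain library sizes and 1 with DESeq2, where 0% of all genes became 11% and 8.36%. Under the other alternatives no share of all genes was counted. At day 12 the count was 0 under every alternative run. The block changed no other call: without it aak-2 at day 4 was not past the threshold (log2 fold change 1.51).

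Signs turned with plain library sizes at day 4 for rict-1 (-0.39), rsks-1 (-0.44) and aak-1 (-0.67), and in the age difference for rsks-1 (0.32) and aak-1 (0.47). At day 12 sir-2.1 was 0.068 with RLE factors and with DESeq2 and 0.0186 with only the 4 libraries compared. In N2 with age aak-2 was 0.0125 with RLE factors, 0.0126 with DESeq2 and 0.0397 with plain library sizes. None of these passed in either setting. With 1 library left out, the ranges that crossed 0 were -0.0409 to 0.41 for aak-1 at day 4. At day 12 they were -0.77 to 0.25 for aak-1, -0.21 to 0.40 for aak-2, -0.45 to 0.0792 for daf-15, -0.31 to 0.27 for raga-1, -1.07 to 0.10 for rict-1, -0.32 to 0.0436 for rsks-1 and -0.20 to 0.13 for sir-2.1. With age they were -0.27 to 0.17 for aak-2 in N2 and -0.45 to 0.67 for rict-1 in mir-83. In the age difference they were -0.95 to 0.0618 for aak-1, -0.08 to 0.13 for let-363 and -0.0157 to 0.57 for raga-1. Of 592 values of members under alternatives, 501 kept direction and side of the threshold. The log2 ratio of aak-2 to sir-2.1 in mir-83 day 12, -1.57, was -1.83 per kilobase. A fit of only the 4 libraries compared could not be made for the age difference, which uses all groups. The cause of the changed calls was not tested, and 2 libraries a group limit every call.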
